A study of Mus musculus with 8 samples.

Results

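The genes described here are the mouse zinc finger genes whose symbols run from Zfp900 to Zfp999, taken by name alone and not by any measured value. The symbol pattern matched 64 of the 54532 genes in the count files, of which 63 are annotated as protein coding and 1, Zfp939, as a transcribed unprocessed pseudogene. Most mouse genes with such numbers encode C2H2 zinc finger proteins, a large and fast-evolving class of DNA-binding proteins. Many of them carry a KRAB domain, which recruits the co-repressor TRIM28 and through it the histone methyltransferase SETDB1 and HP1 proteins. KRAB zinc finger proteins are best known for silencing transposable elements, endogenous retroviruses among them, and their genes lie in tandem clusters in which neighbours are near copies of each other.

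The RNA was measured in 4T1, a triple-negative mammary carcinoma cell line from a BALB/c mouse, carrying either a scramble control hairpin or a hairpin against MCT-1 (shMCT-1), both kept under puromycin. Each line was treated for 48 h with control IgG or with an antibody to the mouse IL-6 receptor at 100 ng/ml, which gave 4 groups, named here by hairpin and antibody (scramble + IgG and so on), each with 2 libraries from independent biological replicates. The dose of IgG and whether each line was a selected pool or a clone were not given in the sources used here, so a difference between the lines cannot be told apart from a difference between the selected populations.

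Mcts1, the gene that encodes MCT-1, read 15.4 and 11.8 CPM (counts scaled to the library total) in scramble cells with IgG and 12.8 and 13.5 with anti-IL-6R, against 6.32 and 6.18 in shMCT-1 cells with IgG and 6.70 and 4.92 with anti-IL-6R. It fell, by log2 fold changes of -1.08 ± 0.17 (SE) within IgG and -1.13 ± 0.17 within anti-IL-6R (edgeR quasi-likelihood test, adjusted p = 0.000676 and 0.000557). Library totals lay between 19839299 and 33063570 expected counts. A level of 1 CPM was therefore 19.8 to 33.1 counts, and 3 counts, the floor used for detection, were 0.0907 to 0.151 CPM. Of 8 mammary epithelial markers 7 passed 1 CPM and Krt5 was at 0. Their summed level was 2406 to 2559 CPM in the scramble libraries and 3167 to 3431 CPM in the shMCT-1 libraries. Of 6 leukocyte markers only Cd68 passed 1 CPM, with Cd3e and Adgre1 among those at 0, and their sum was 2.75 to 3.52 CPM in scramble and 5.51 to 7.51 CPM in shMCT-1 libraries. Of 6 fibroblast and endothelial markers 3 passed 1 CPM, with a sum of 15.4 to 17.3 CPM in scramble and 13.2 to 17.7 CPM in shMCT-1 libraries. Of Esr1, Pgr and Erbb2 only Pgr was at 0. Single markers differed more than these sums. Epcam was at 3.75 to 4.93 CPM in scramble and 49.4 to 54.5 CPM in shMCT-1 libraries, Krt19 at 16.5 to 19.5 and 0.384 to 0.774 CPM, and Cdh1 was called in neither comparison. Pdgfra held most of the fibroblast and endothelial sum and was called in neither, while Col1a1 (0.249 to 0.484 and 1.07 to 1.66 CPM) and Cdh5 (0 to 0.124 and 0.454 to 1.46 CPM) were called higher in shMCT-1 cells. These markers moved with the hairpin, and their part in the results below was not tested.

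The 64 genes lay on 12 chromosomes, and 45 of them fell into 6 clusters in which each gene was within 1 Mb of the next. The largest spanned 145510759 to 147848366 on chromosome 4 with 16 genes, followed by 175372436 to 178078476 on chromosome 2 and 21567008 to 22867134 on chromosome 17, with 10 genes each (GRCm38, the assembly also called mm10). Because tandem copies share sequence, 13 of the 64 genes had fewer than 50% of their 100-base transcript windows to themselves, and Zfp967 and Zfp969 on chromosome 2 had none. RSEM, the counting tool, divides a read that fits several genes between them, and values of such genes are uncertain in the sense that a neighbour's reads may be in them. The likeness extends upstream of the transcripts. The 250 bases ahead of the RefSeq start are printed here for 3 genes of the chromosome 2 cluster, 2 of the chromosome 4 cluster and Zfp940 on chromosome 7, since the comparisons of the lines below turn on these genes. Sequences are from RefSeq on GRCm38.p6, read 5′ to 3′ on the strand of the gene, and capitals mark the CCAAT box, written CCAAT or, in the other orientation, ATTGG. Their places are chr2:175931101-175931350 (minus strand), chr2:176670272-176670521 (plus strand), chr2:178023034-178023283 (plus strand), chr4:147642509-147642758 (minus strand), chr4:147553027-147553276 (plus strand) and chr7:29853649-29853898 (minus strand).
Zfp966: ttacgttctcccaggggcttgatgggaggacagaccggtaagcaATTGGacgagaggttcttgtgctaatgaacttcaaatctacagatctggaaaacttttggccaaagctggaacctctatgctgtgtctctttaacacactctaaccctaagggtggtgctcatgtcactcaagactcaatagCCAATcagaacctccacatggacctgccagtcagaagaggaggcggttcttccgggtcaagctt
Zfp973: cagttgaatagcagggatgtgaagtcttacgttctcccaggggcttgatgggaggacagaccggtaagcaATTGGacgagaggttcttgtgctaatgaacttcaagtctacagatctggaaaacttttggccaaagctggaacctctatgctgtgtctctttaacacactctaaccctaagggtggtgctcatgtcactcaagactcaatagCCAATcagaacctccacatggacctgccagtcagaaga
Zfp971: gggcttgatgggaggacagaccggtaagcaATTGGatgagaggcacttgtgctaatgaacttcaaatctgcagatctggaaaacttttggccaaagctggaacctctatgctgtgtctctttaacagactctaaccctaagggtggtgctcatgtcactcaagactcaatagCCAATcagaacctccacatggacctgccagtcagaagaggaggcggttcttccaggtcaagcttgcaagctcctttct
Zfp979: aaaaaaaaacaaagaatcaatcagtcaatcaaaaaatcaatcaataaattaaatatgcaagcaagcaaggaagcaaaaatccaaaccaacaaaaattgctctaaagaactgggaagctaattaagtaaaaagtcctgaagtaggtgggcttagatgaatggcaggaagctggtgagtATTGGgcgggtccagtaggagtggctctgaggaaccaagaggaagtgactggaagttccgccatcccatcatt
Zfp985: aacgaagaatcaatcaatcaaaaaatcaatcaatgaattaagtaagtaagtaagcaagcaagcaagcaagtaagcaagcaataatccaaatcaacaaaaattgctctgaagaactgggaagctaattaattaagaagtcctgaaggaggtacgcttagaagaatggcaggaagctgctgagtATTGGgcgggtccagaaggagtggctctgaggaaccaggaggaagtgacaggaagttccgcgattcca
Zfp940: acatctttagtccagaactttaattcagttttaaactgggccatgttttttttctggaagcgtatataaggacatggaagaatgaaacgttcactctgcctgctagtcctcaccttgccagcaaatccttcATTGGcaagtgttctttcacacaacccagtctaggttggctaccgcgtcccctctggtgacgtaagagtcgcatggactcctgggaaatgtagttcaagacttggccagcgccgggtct

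Over the bases that could be laid side by side without gaps in 300-base windows that also hold the first 50 transcribed bases, Zfp966 and Zfp973 were identical at 273 of 274 positions. Zfp971, farther along the same cluster, matched Zfp966 at 279 of 286. Zfp979 and Zfp985 matched at 249 of 295, and Zfp979 and Zfp984 of the same cluster at 170 of 287. RefSeq promoters were found for 54 of the 64 genes (62 start sites). CCAAT or its reverse complement stood in 48 of the 62 windows of 250 bases (77.4%), against 33.9% of all 32851 promoters of that length, and in all 9 windows of the chromosome 2 cluster. TATAAA was in none of the 62 windows on either strand, against 12.4% of all promoters, GGGCGG in 19 (30.7%) against 32.7%, and CCGGAAG in 15 (24.2%) against 6.91%. Since promoters of a cluster are copies of each other these are not independent windows, and the matches describe letters only. Zfp942 and Zfp943 on chromosome 17 start head to head, with 94 bases between their RefSeq start sites at 21962464 and 21962559.

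Expression of the Zfp9xx genes was low. A mean of at least 1 CPM was reached by 40 of the 64 genes in scramble cells with IgG and 41 with anti-IL-6R, and by 36 in shMCT-1 cells with IgG and 35 with anti-IL-6R. In all, 43 genes reached it in at least 1 group and 33 in every group, and 32 were above 1 CPM in all 8 libraries. At the other end, Zfp935, Zfp936, Zfp967, Zfp977 and Zfp993 had no count in any library, which allows at most 0.0907 to 0.151 CPM depending on the library. Zfp947, Zfp957, Zfp969 and Zfp989 never passed 3 counts. The filter for testing, more than 1 CPM in at least 2 libraries, kept 43 of the 64 genes (67.2%), 239 of 310 other numbered Zfp genes (77.1%) and 12704 genes in all. Those that did not pass were, beside these 9, Zfp937, Zfp965, Zfp972, Zfp976, Zfp980, Zfp981, Zfp982, Zfp986, Zfp987, Zfp990, Zfp991 and Zfp992. Of the 21 genes 16 had counts, and the highest value among them was 0.906 CPM for Zfp937 on chromosome 2. Of those 21 genes 8 had fewer than 50% of their windows to themselves, against 5 of the 43 that passed. All counts and medians below are over the 43 genes that passed, so genes expressed in only 1 background are among them because of the higher group. A mean of at least 1 CPM was reached in scramble libraries alone by 7 of them, Zfp931, Zfp939, Zfp953, Zfp964, Zfp968, Zfp971 and Zfp973, and in shMCT-1 libraries alone by 1, Zfp940.

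The 4 genes above 10 CPM in all 8 libraries were Zfp979 and Zfp985 on chromosome 4, Zfp948 on chromosome 17 and Zfp961 on chromosome 8. Zfp948 read 26.7 and 31.6 CPM in scramble cells with IgG and 23.0 and 26.9 with anti-IL-6R, against 18.9 and 23.5 in shMCT-1 cells with IgG and 14.1 and 19.5 with anti-IL-6R. The lowest scramble library of Zfp948 was thus below the highest shMCT-1 library, and the lines overlapped. Per kilobase of exon, the scale on which genes can be compared, Zfp948 had the highest level, 8.68 CPM per kb, then Zfp985 (6.96), Zfp979 (6.71), Zfp961 (4.42) and Zfp984 (3.49). The median level of the 43 genes was 1.17 CPM per kb, against 2.23 for the other numbered Zfp genes and 6.07 for all tested genes, and 3 of the 43 were above the last of these. Summed over the 64 genes, the level was 309 and 346 CPM in scramble cells with IgG and 283 and 302 with anti-IL-6R, against 205 and 240 in shMCT-1 cells with IgG and 182 and 203 with anti-IL-6R. The 4 shMCT-1 sums lay below the 4 scramble sums, and within each line the anti-IL-6R libraries lay below the IgG libraries. The 5 genes of highest CPM held 39.9% of the sum.

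**Figure D1:**
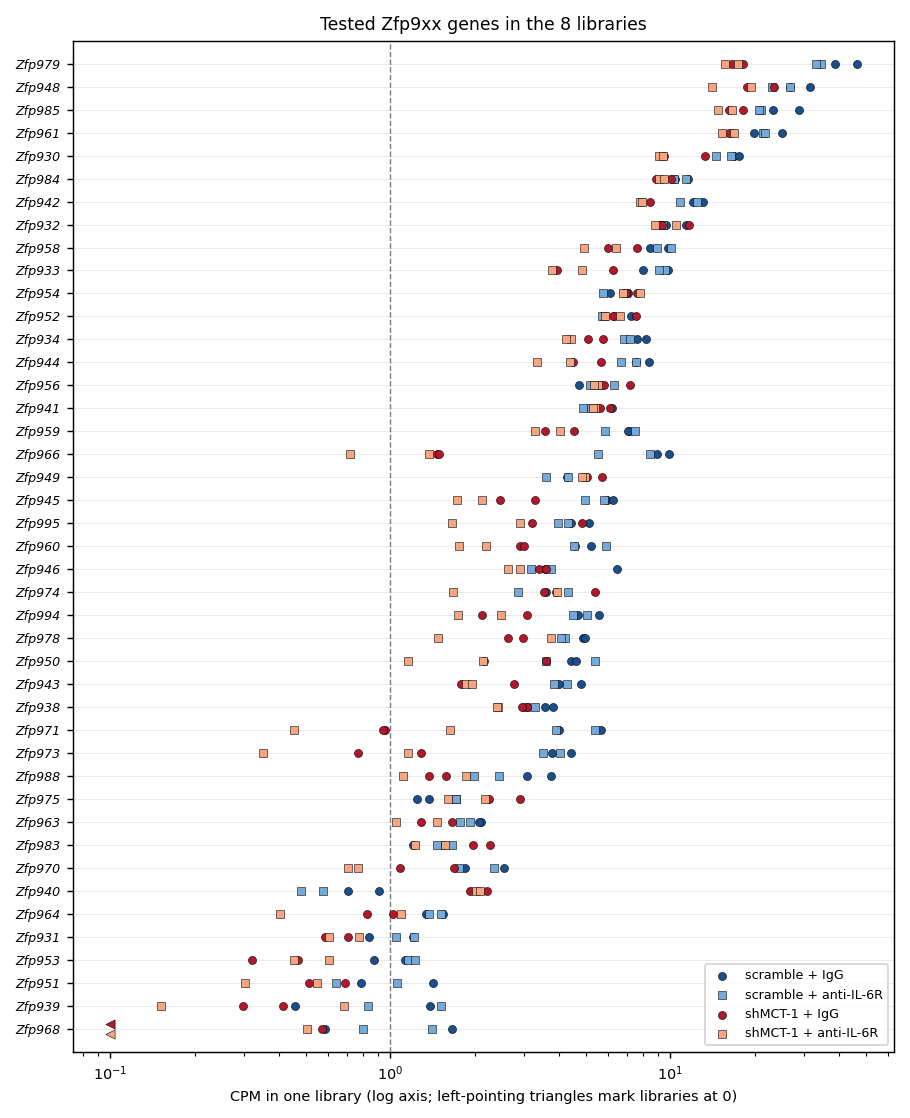
Level of each of the 43 tested genes in each of the 8 libraries, in CPM on a log axis, with 1 point per library, coloured by line and shaped by treatment (circles IgG, squares anti-IL-6R), and a dashed line at 1 CPM. For 27 genes all shMCT-1 points lie left of all scramble points, for Zfp940 they lie right, and Zfp968 was at 0 in 1 library of each shMCT-1 group.

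The shMCT-1 line had less RNA than the scramble line from many, but not all, of these genes. In bulk RNA, fewer cells that express a gene and less RNA per cell cannot be told apart. Within IgG, 18 of the 43 genes fell and 2 rose in shMCT-1 relative to scramble (edgeR quasi-likelihood test, adjusted p under 0.05 over 12704 genes). Over all tested genes 26.2% were called lower and 28.3% higher in this comparison. Within anti-IL-6R, 22 genes fell and 1 rose, where 27.3% of all tested genes were called lower and 26.9% higher. In either direction 20 and 23 of the 43 genes were called, beside 54.4% and 54.3% of all tested genes, and 23 in each comparison stood at an unadjusted p under 0.05, beside 60.2% and 60.3%, so the share called was below the background while the direction was mostly down. The median log2 fold change of the 43 genes was -0.58 within IgG and -0.66 within anti-IL-6R, beside 0.01 and 0.01 for all tested genes. The other numbered Zfp genes lay between, with medians of -0.23 and -0.34 and with 79 and 99 of 239 called lower and 22 and 21 called higher. The sign was negative for 33 of the 43 genes within IgG and 36 within anti-IL-6R, where 49.3% and 49.6% of all tested genes were negative. The 7 genes that reached 1 CPM in scramble cells alone weigh the signs and medians downward, and Zfp940 upward, since a gene this low is tested mainly through its higher line. Among the 33 genes above 1 CPM in at least 7 libraries, 15 and 18 fell, with medians of -0.49 and -0.54. The share of all genes called lower under that stricter filter is not given here. These 2 counts are therefore not read as a result about the Zfp9xx genes. The comparisons use different libraries within 1 fit, and 17 genes fell in both of them, namely Zfp930, Zfp933, Zfp934, Zfp942, Zfp943, Zfp944, Zfp945, Zfp953, Zfp959, Zfp960, Zfp961, Zfp966, Zfp971, Zfp973, Zfp979, Zfp985 and Zfp994. Of these, Zfp953 and Zfp971 passed the filter only with their scramble libraries, so their direction was largely set by the filter. Zfp940 rose in both, Zfp975 rose within IgG, Zfp988 fell within IgG, Zfp948, Zfp950, Zfp958, Zfp970 and Zfp995 fell within anti-IL-6R, and 18 of the 43 genes were called in neither. By the raw CPM, all shMCT-1 libraries were below all scramble libraries for 27 genes and above them for 1, where 34.2% and 29.9% of all tested genes were separated in these ways.

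These counts depended on single libraries and on base composition. Without scramble + IgG replicate 2 the number lower within IgG was 10, without shMCT-1 + IgG replicate 1 it was 7, and without scramble + anti-IL-6R replicate 2 the number lower within anti-IL-6R was 10. After a correction of each library for GC content and transcript length, 5 genes were called lower and 4 higher within IgG (25.5% and 27.1% of all tested genes) and 14 lower and 3 higher within anti-IL-6R (24.3% and 29.9%), with medians of -0.25 and -0.31.

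**Figure D2:**
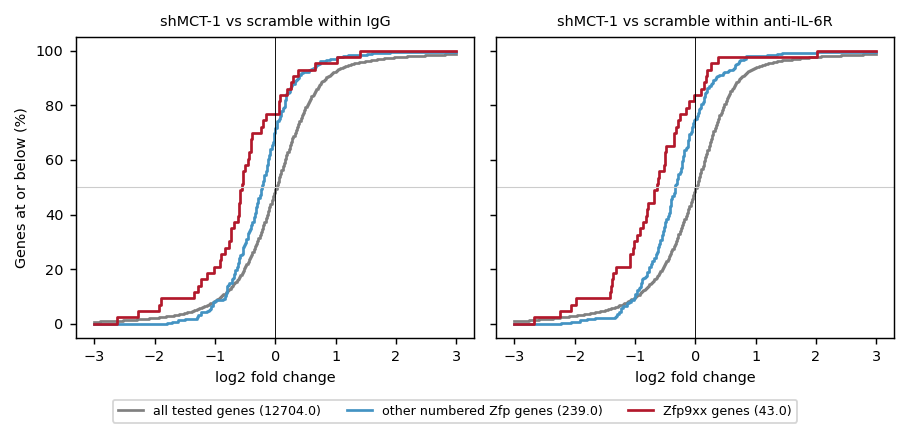
Cumulative percentage of genes at or below a given log2 fold change (x axis, shMCT-1 over scramble), within IgG (left) and within anti-IL-6R (right), for the 43 Zfp9xx genes, 239 other numbered Zfp genes and all 12704 tested genes. The Zfp9xx curve lies left of the other curves over most of its range and crosses 50% at -0.58 on the left and -0.66 on the right, where all genes cross near 0.

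The lowest fold changes were in the chromosome 2 cluster. Its near identical promoters were not particular to the genes that fell most. Zfp968 matched Zfp966 at 274 of 274 positions, Zfp970 at 293 of 295 and Zfp965 at 285 of 286. Of these, Zfp965 did not pass the filter, Zfp968 was called in neither comparison and Zfp970 was not called within IgG. A link between promoter and fold change was not tested. Zfp966 lies at 175918881 to 175931100 on the minus strand, Zfp973 at 176670522 to 176719085 and Zfp971 at 178023284 to 178034022 on the plus strand. Zfp966 read 8.97 and 9.92 CPM in scramble cells with IgG and 5.49 and 8.49 with anti-IL-6R, against 1.47 and 1.49 in shMCT-1 cells with IgG and 0.715 and 1.38 with anti-IL-6R. Zfp973 read 3.79 and 4.41 CPM, then 4.03 and 3.51, then 0.769 and 1.28, then 0.351 and 1.15 in the same order of groups. Zfp971 read 4.00 and 5.64, then 3.91 and 5.37, then 0.954 and 0.940, then 0.454 and 1.64 CPM. For these 3 genes every shMCT-1 library was below every scramble library, with the widest gap in Zfp966. Zfp966 fell, by log2 fold changes of -2.63 ± 0.29 (SE) within IgG and -2.68 ± 0.31 within anti-IL-6R (edgeR, adjusted p = 9.02e-05 and 0.000112). Zfp971 fell, by log2 fold changes of -2.29 ± 0.44 and -2.07 ± 0.43 (adjusted p = 0.00176 and 0.0029), and Zfp973 by -1.94 ± 0.39 and -2.25 ± 0.41 (adjusted p = 0.00238 and 0.00142). Leaving out 1 library at a time left Zfp966 at or below -2.54 within IgG and -2.29 within anti-IL-6R. The same limits were -2.01 and -1.44 for Zfp971 and -1.63 and -1.66 for Zfp973. Zfp971 passed the filter only with its scramble libraries, which largely fixes its direction. The same filtered genes were kept in these fits, so they do not test that direction. Zfp971 and Zfp973 were among the genes that reached a mean of 1 CPM in scramble cells alone. Zfp970 read 2.54 and 1.84, then 1.76 and 2.34, then 1.68 and 1.08, then 0.706 and 0.766 CPM. It fell by 1.40 ± 0.36 within anti-IL-6R (adjusted p = 0.00817, or 0.0669 without scramble + anti-IL-6R replicate 2), while within IgG its value was -0.63 ± 0.33 (adjusted p = 0.131). Zfp931 (-0.58 and -0.66) and Zfp968 (-1.90 ± 1.04 and -2.0 ± 1.06) did not pass the test, although their lines did not overlap.

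The difference was smaller once the cluster's other genes were added. The summed level of its 10 Zfp9xx genes was 22.0 CPM on average over the 4 scramble libraries and 5.78 CPM over the 4 shMCT-1 libraries. The 13 other tested genes inside the cluster, most of them with provisional symbols such as Gm14325, had medians of -0.87 and -0.84, with 3 and 4 of them called lower and none higher. The 40 other genes within 3 Mb had medians of -0.16 and -0.19, and the 995 other genes of chromosome 2 had -0.36 and -0.36 with 50.8% and 51.7% called lower. Windows private to the gene made up 20.1% of Zfp966, 26.8% of Zfp973 and 77.9% of Zfp971. When 36 genes joined by shared windows, 9 Zfp9xx genes among them, were summed into 1 feature, it read 61.5 and 76.9 CPM in scramble cells with IgG and 57.2 and 72.0 with anti-IL-6R, against 37.6 and 36.7 in shMCT-1 cells with IgG and 26.2 and 33.7 with anti-IL-6R. This sum fell, by log2 fold changes of -0.86 ± 0.16 within IgG and -1.05 ± 0.16 within anti-IL-6R (edgeR, adjusted p = 0.00141 and 0.000479). Without the chromosome 2 genes, 15 and 18 of the 37 remaining genes were called lower, with medians of -0.51 and -0.53.

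Chromosome 4 held Zfp979 and Zfp985, and only 6 of its 16 genes passed the filter. Zfp979 read 38.8 and 46.4 CPM in scramble cells with IgG and 34.5 and 33.2 with anti-IL-6R, against 16.6 and 18.2 in shMCT-1 cells with IgG and 15.7 and 17.5 with anti-IL-6R. Zfp985 read 23.2 and 28.9, then 21.2 and 20.8, then 16.2 and 18.2, then 14.8 and 16.6 CPM. Both genes were lower in each shMCT-1 library than in any scramble library, and for both the scramble + IgG pair was the highest. Zfp979 fell, by log2 fold changes of -1.25 ± 0.12 and -0.97 ± 0.12 within IgG and anti-IL-6R (edgeR, adjusted p = 3.93e-05 and 0.000159), and the call held without any single library. Zfp985 fell, by log2 fold changes of -0.55 ± 0.13 and -0.36 ± 0.13 (adjusted p = 0.00554 and 0.0418). Its call within anti-IL-6R was lost on leaving out any of the 6 libraries other than scramble + IgG (adjusted p 0.0557 to 0.195) and its call within IgG without shMCT-1 + IgG replicate 1 (adjusted p = 0.053). Zfp988 read 3.07 and 3.75, then 2.45 and 1.99, then 1.37 and 1.57, then 1.86 and 1.10 CPM. It fell by 1.15 ± 0.30 within IgG (adjusted p = 0.00957, or 0.0577 and 0.0609 without scramble + IgG replicate 2 or shMCT-1 + IgG replicate 1), with -0.53 ± 0.31 within anti-IL-6R (adjusted p = 0.171).

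Zfp933, at the far end of the cluster, fell in both comparisons (-0.76 and -1.06), and Zfp978 (-0.76 and -0.60) was called in neither. Zfp984, between 8.91 and 11.6 CPM in all 8 libraries, had -0.17 ± 0.13 in both comparisons and was called in neither. The 6 other tested genes inside this cluster, Zfp534 and Zfp600 among them, had medians of -0.03 and 0.11. Summed over 20 genes joined by shared windows, 11 Zfp9xx genes among them, the family read 85.3 and 100.5 CPM in scramble cells with IgG and 77.4 and 75.6 with anti-IL-6R, against 51.1 and 56.2 in shMCT-1 cells with IgG and 46.2 and 55.5 with anti-IL-6R. That sum fell, by log2 fold changes of -0.75 ± 0.12 and -0.53 ± 0.12 (edgeR, adjusted p = 0.000644 and 0.00412). The 20 genes in it lay on chromosomes 3 and 4.

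On chromosome 17, 9 of the 10 genes of the cluster were tested, 5 fell within IgG and 7 within anti-IL-6R, and the medians were -0.58 and -0.79. Of the 630 other tested genes of the chromosome 24.1% and 25.6% were called lower. Zfp945 read 5.92 and 6.22 CPM in scramble cells with IgG and 4.96 and 5.81 with anti-IL-6R, against 2.47 and 3.28 in shMCT-1 cells with IgG and 2.12 and 1.73 with anti-IL-6R. It fell, by log2 fold changes of -1.03 ± 0.21 and -1.43 ± 0.22 (edgeR, adjusted p = 0.00268 and 0.000598). Zfp942 read 12.1 and 13.1, then 10.9 and 12.4, then 7.85 and 8.43, then 7.76 and 7.90 CPM, with no overlap between the lines. It fell, by log2 fold changes of -0.58 ± 0.13 and -0.51 ± 0.13 (adjusted p = 0.00406 and 0.00795, the latter 0.0845 without scramble + anti-IL-6R replicate 2). Its head-to-head neighbour Zfp943 fell in both comparisons too (-0.90 and -1.03), as did Zfp944 (-0.61 and -0.82) and Zfp994 (-0.92 and -1.10). Zfp948, the gene of highest level per length, fell by 0.51 ± 0.17 within anti-IL-6R (adjusted p = 0.0288, but 0.168 without scramble + anti-IL-6R replicate 2 and 0.204 without shMCT-1 + anti-IL-6R replicate 1) and had -0.42 ± 0.17 within IgG (adjusted p = 0.0593). Within IgG Zfp948 was called lower without scramble + IgG replicate 1 or either shMCT-1 + anti-IL-6R library (adjusted p 0.0276 to 0.0417). Zfp946 read 3.56 and 6.47, then 3.74 and 3.18, then 3.39 and 3.58, then 2.62 and 2.91 CPM, with overlap between the lines and 1 scramble + IgG library far above the rest. It had -0.48 ± 0.28 and -0.26 ± 0.29 and was called in neither, although without scramble + IgG replicate 1 it was called lower within IgG (adjusted p = 0.012). Zfp995 read 4.43 and 5.10, then 3.97 and 4.29, then 3.20 and 4.82, then 1.66 and 2.91 CPM, so that only its anti-IL-6R libraries separated the lines. It fell by 0.79 ± 0.29 within anti-IL-6R (adjusted p = 0.0422, but 0.0518 to 0.256 on leaving out scramble + IgG replicate 2, either scramble + anti-IL-6R library or shMCT-1 + anti-IL-6R replicate 1) and had -0.20 ± 0.27 within IgG (adjusted p = 0.553). Zfp983 read 1.56 and 1.20, then 1.66 and 1.47, then 1.97 and 2.26, then 1.56 and 1.23 CPM. It was the only tested gene of this cluster with a positive value, 0.65 ± 0.29 within IgG (adjusted p = 0.079) and -0.12 ± 0.29 within anti-IL-6R. The 7 other tested genes inside the cluster, Zfp229, Zfp758 and Zfp760 among them, had medians of -0.81 and -0.82, and the 83 genes within 3 Mb had 0.12 and 0.05.

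On chromosome 8 and among single genes elsewhere, most fold changes were smaller than on chromosome 2. The chromosome 8 cluster of Zfp930, Zfp963 and Zfp964 had medians of -0.55 and -0.69, while the 100 other genes within 3 Mb had medians of 0.38 and 0.35. Zfp930 read 16.8 and 17.6 CPM in scramble cells with IgG and 14.6 and 16.5 with anti-IL-6R, against 9.52 and 13.3 in shMCT-1 cells with IgG and 9.12 and 9.38 with anti-IL-6R, and fell in both comparisons (-0.55 and -0.69). Zfp961 read 19.9 and 25, then 21.5 and 21.7, then 16.6 and 16.2, then 16.9 and 15.3 CPM. Its lines did not overlap, and it fell, by log2 fold changes of -0.41 ± 0.13 and -0.37 ± 0.13 (edgeR, adjusted p = 0.0219 and 0.0341). The Zfp961 calls were lost within IgG without scramble + IgG replicate 2 or either shMCT-1 + IgG library (adjusted p 0.0804 to 0.147), and within anti-IL-6R without any of the 6 libraries other than scramble + IgG (0.0526 to 0.158). Zfp958 read 8.43 and 9.83, then 8.96 and 10.1, then 6.00 and 7.59, then 6.40 and 4.92 CPM, with no overlap between the lines. It fell by 0.70 ± 0.19 within anti-IL-6R (adjusted p = 0.0104, or 0.0731 and 0.0714 without scramble + anti-IL-6R replicate 2 or shMCT-1 + anti-IL-6R replicate 2), with -0.38 ± 0.18 within IgG (adjusted p = 0.104). Zfp953 on chromosome 13 fell, by log2 fold changes of -1.28 ± 0.40 and -1.10 ± 0.37 (adjusted p = 0.0202 and 0.0298), from 0.871 to 1.22 CPM in scramble libraries to 0.320 to 0.605 CPM in shMCT-1 libraries. It passed the filter through its scramble libraries alone, which fixes its direction. DESeq2 did not call Zfp953 (adjusted p = 0.0802 and 0.126), and its call was lost within IgG without replicate 1 of scramble + IgG or of shMCT-1 + IgG (adjusted p = 0.0883 and 0.117) and within anti-IL-6R without any of the 4 libraries compared (0.0514 to 0.126). Zfp960, on chromosome 17 outside the cluster, read 5.20 and 4.58, then 5.89 and 4.54, then 2.90 and 3.0, then 1.75 and 2.20 CPM, with no overlap between the lines. It fell, by log2 fold changes of -0.69 ± 0.22 and -1.34 ± 0.22 (adjusted p = 0.0209 and 0.000872), the first of which was lost without scramble + IgG replicate 1 or either shMCT-1 + IgG library (adjusted p 0.0741 to 0.0893). Only 31.7% of its windows were its own. Zfp959 (-0.76 and -0.80) and Zfp934 (-0.51 and -0.64) fell in both comparisons and Zfp950 (-0.61 and -1.37) within anti-IL-6R. Zfp932, which is known as a repressor of endogenous retroviruses in embryonic stem cells, had 0.04 and 0.09 and was called in neither. Over the 17 tested genes that stand alone, 4 and 6 fell, 1 rose in each comparison, and the medians were -0.25 and -0.33. Beside the 26.2% and 27.3% of all tested genes called lower, the counts that fell are near the background. The 1 gene that rose is a smaller share than the 28.3% and 26.9% of all tested genes called higher. The medians stood beside 0.01 and 0.01 for all tested genes.

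The genes that rose were on chromosome 7, where none of 6 tested genes was called lower and the medians were 0.24 and 0.17. Zfp940 read 0.908 and 0.705 CPM in scramble cells with IgG and 0.480 and 0.575 with anti-IL-6R, against 1.92 and 2.22 in shMCT-1 cells with IgG and 2.02 and 2.09 with anti-IL-6R. All 4 shMCT-1 libraries were above all 4 scramble libraries. Zfp940 rose by 1.39 ± 0.30 within IgG and by 2.01 ± 0.31 within anti-IL-6R (edgeR, adjusted p = 0.00353 and 0.000573), also without any single library. It passed the filter through its shMCT-1 libraries alone, which fixes its direction, and is not among the genes above 1 CPM in at least 7 libraries. Zfp975 read 1.38 and 1.24, then 1.72 and 1.72, then 2.24 and 2.89, then 1.61 and 2.17 CPM. The IgG libraries of the lines did not overlap and the anti-IL-6R libraries did. Zfp975 rose by 1.01 ± 0.28 within IgG (adjusted p = 0.0122, or 0.0562 and 0.0872 without scramble + IgG replicate 2 or shMCT-1 + IgG replicate 2) and had 0.20 ± 0.28 within anti-IL-6R (adjusted p = 0.566). The 949 other tested genes of chromosome 7 had medians of 0.10 and 0.10. Of these, 17.5% and 19.4% were called lower and 31.9% and 29.8% higher. The counts over the 6 Zfp9xx genes are to be read against these shares.

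**Figure D3:**
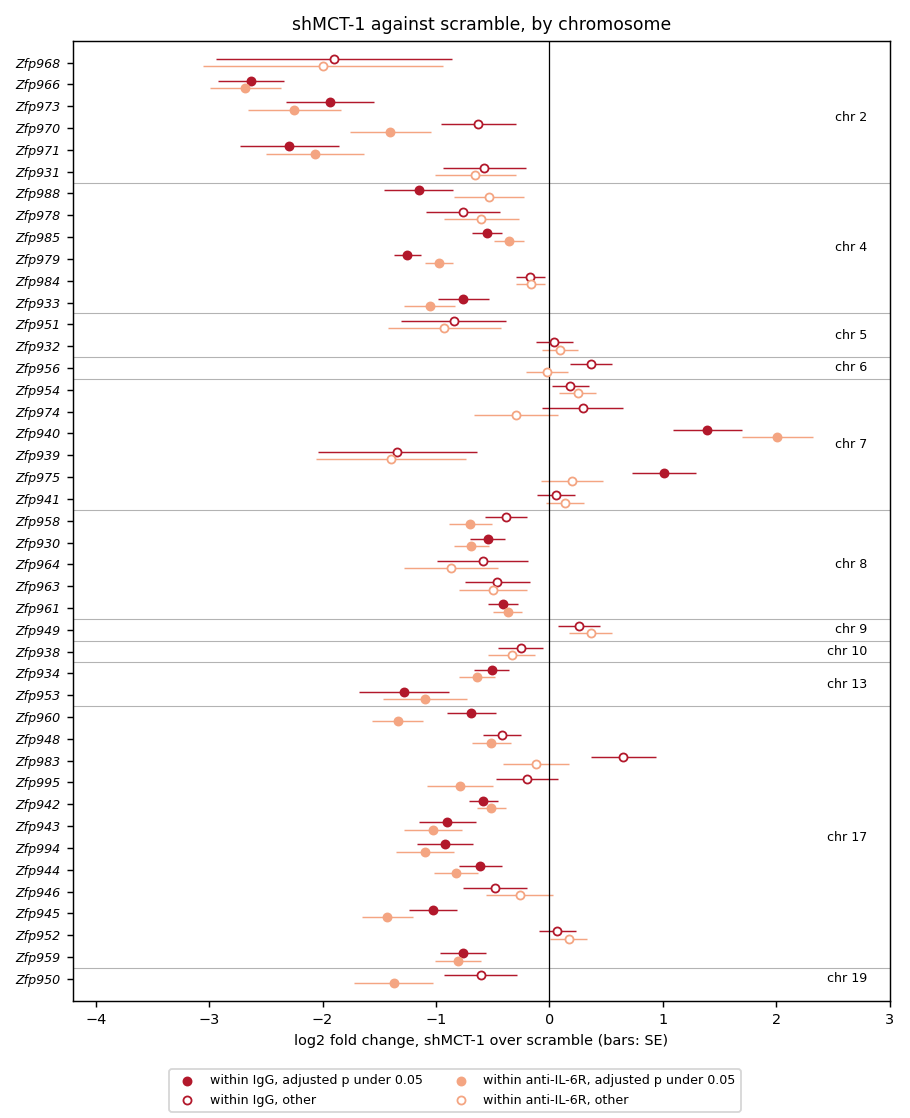
Log2 fold change of shMCT-1 over scramble with its SE (bars) for the 43 tested genes in chromosome order, within IgG (dark) and within anti-IL-6R (light), filled where the adjusted p was under 0.05. Chromosome 2 holds the values near -2, Zfp940 on chromosome 7 is at 1.39 and 2.01, and most other points lie between 0 and -1.4.

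Transcripts of these genes are AT-rich, and in these libraries the fold change moved with base composition over all genes. The GC content of the longest transcript had a median of 39.3% over the 43 genes (33.2% in Zfp931 to 54.0% in Zfp956), 46.2% over the other numbered Zfp genes and 49.7% over all tested genes. Below 45% GC were 40 of the 43 genes and 26% of all tested genes. Among tested genes other than the Zfp9xx genes, the median log2 fold change within IgG was -0.47 at 33 to 38% GC, -0.26 at 38 to 43%, -0.10 at 43 to 48%, 0.07 at 48 to 53% and 0.18 at 53 to 70%. In the first bin 46.6% of 283 such genes were called lower, and 11 of 18 Zfp9xx genes, with a median of -0.59. In the second bin 41.3% of 1771 genes were called lower, and 7 of 17 Zfp9xx genes, with a median of -0.61. Within anti-IL-6R the medians of the Zfp9xx genes in these bins were -0.68 and -0.79, beside -0.45 and -0.25, with 12 and 10 called lower. The 8 Zfp9xx genes at 43% GC or more held no gene called lower in either comparison. Of the other genes, 31.9% and 32.6% were called lower at 43 to 48% GC and 24.2% and 25.4% at 48 to 53%. At 53 to 70% these shares were 15.3% and 17.0%. With 8 genes, the absence of a call is not read as a result about the Zfp9xx genes.

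With the correction for GC content and length, which removes any trend with these features whatever its source, the genes lower within IgG were Zfp959, Zfp966, Zfp971, Zfp973 and Zfp979. Within anti-IL-6R they were Zfp930, Zfp933, Zfp943, Zfp944, Zfp945, Zfp950, Zfp959, Zfp960, Zfp966, Zfp970, Zfp971, Zfp973, Zfp979 and Zfp994. All of these were also lower before the correction. Zfp940 was higher before and after it in both comparisons, Zfp975 within IgG, and Zfp932 became higher in both, Zfp983 within IgG and Zfp984 within anti-IL-6R. The 6 tested chromosome 2 genes had medians of -1.74 and -1.76 after the correction, but they were split. Zfp931 was at 0.17 and 0.12, Zfp970 at -0.45 and -1.15, and Zfp968 was called in neither comparison. The sign of Zfp985 within anti-IL-6R turned, from -0.36 to 0.13.

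**Figure D4:**
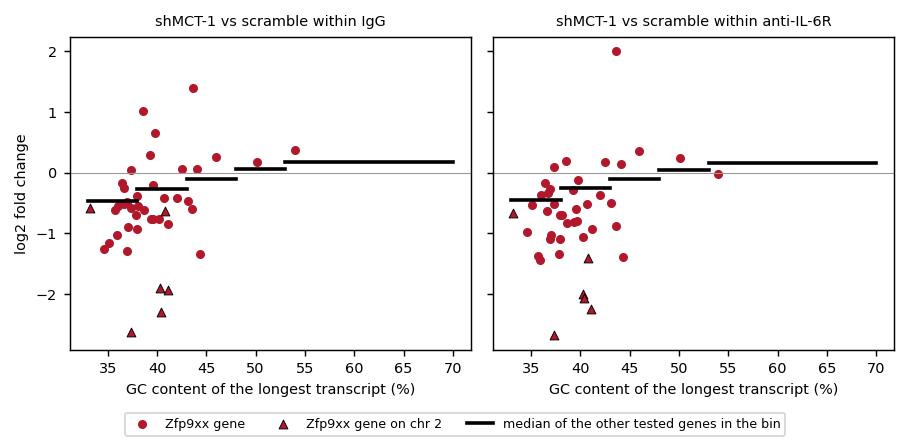
Log2 fold change of shMCT-1 over scramble (y axis) against GC content of the longest transcript in percent (x axis) for the 43 tested genes, within IgG (left) and anti-IL-6R (right), with genes of chromosome 2 as triangles and the median of the other tested genes in each GC bin as black lines. The black lines climb from -0.47 to 0.18 on the left, and most points lie below them. Zfp966, Zfp971 and Zfp973 of chromosome 2 are among the farthest, while Zfp931 of chromosome 2 lies near its line.

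No Zfp9xx gene was called for the antibody against the IL-6 receptor in either line. The comparisons share their libraries with those above and each line has 2 treated and 2 untreated libraries. In scramble cells none of the 43 genes passed the test for anti-IL-6R against IgG (edgeR, adjusted p under 0.05, 0.0% of all tested genes called), and DESeq2 called none either. At an unadjusted p under 0.05 stood 2 of the 43 genes, Zfp979 and Zfp985, beside 1.31% of all tested genes. Values ran from -0.62 for Zfp988 to 0.38 for Zfp975, with a median of -0.12 beside 0.01 for all tested genes, and 34 of the 43 were negative beside 47.0% of all tested genes. In shMCT-1 cells none passed either (0.0% of all tested genes called, and none of the 43 by DESeq2, which called 11 genes in all), and 4 of the 43, Zfp945, Zfp960, Zfp970 and Zfp995, stood at an unadjusted p under 0.05 beside 3.98% of all tested genes. Here values ran from -0.88 for Zfp970 to 0.41 for Zfp953, the median was -0.25 beside -0.01 for all tested genes, and 38 of 43 were negative beside 52.2%. That median was -0.04 without shMCT-1 + IgG replicate 2, -0.12 without shMCT-1 + anti-IL-6R replicate 1 and -0.10 with the GC and length correction. In the GC bin of 33 to 38% the genes other than the Zfp9xx genes had medians of -0.13 in scramble and -0.11 in shMCT-1 cells, beside -0.15 and -0.26 for the 18 Zfp9xx genes.

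The values behind the shMCT-1 end of this range were low. Zfp970 read 1.68 and 1.08 CPM in shMCT-1 + IgG and 0.706 and 0.766 in shMCT-1 + anti-IL-6R, with a log2 fold change of -0.88 ± 0.38. Zfp960 read 2.90 and 3.0 against 1.75 and 2.20 CPM (-0.56 ± 0.24), and in scramble cells 5.20 and 4.58 against 5.89 and 4.54 (0.09 ± 0.20). The treated and untreated libraries of both genes were apart in shMCT-1 cells and overlapped in scramble cells. Zfp940 read 0.908 and 0.705 against 0.480 and 0.575 CPM in scramble cells (-0.62 ± 0.34). The interaction, the difference between the antibody's effects in the lines, was called for none of the 43 genes (0.0% of all tested genes called, and by DESeq2 6 genes in all and none of these), and none stood at an unadjusted p under 0.05 beside 2.48% of all tested genes. Its values ran from -0.81 ± 0.39 for Zfp975 to 0.62 ± 0.44 for Zfp988, so that a difference in response between the lines was not detectable with 2 libraries per group.

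**Figure D5:**
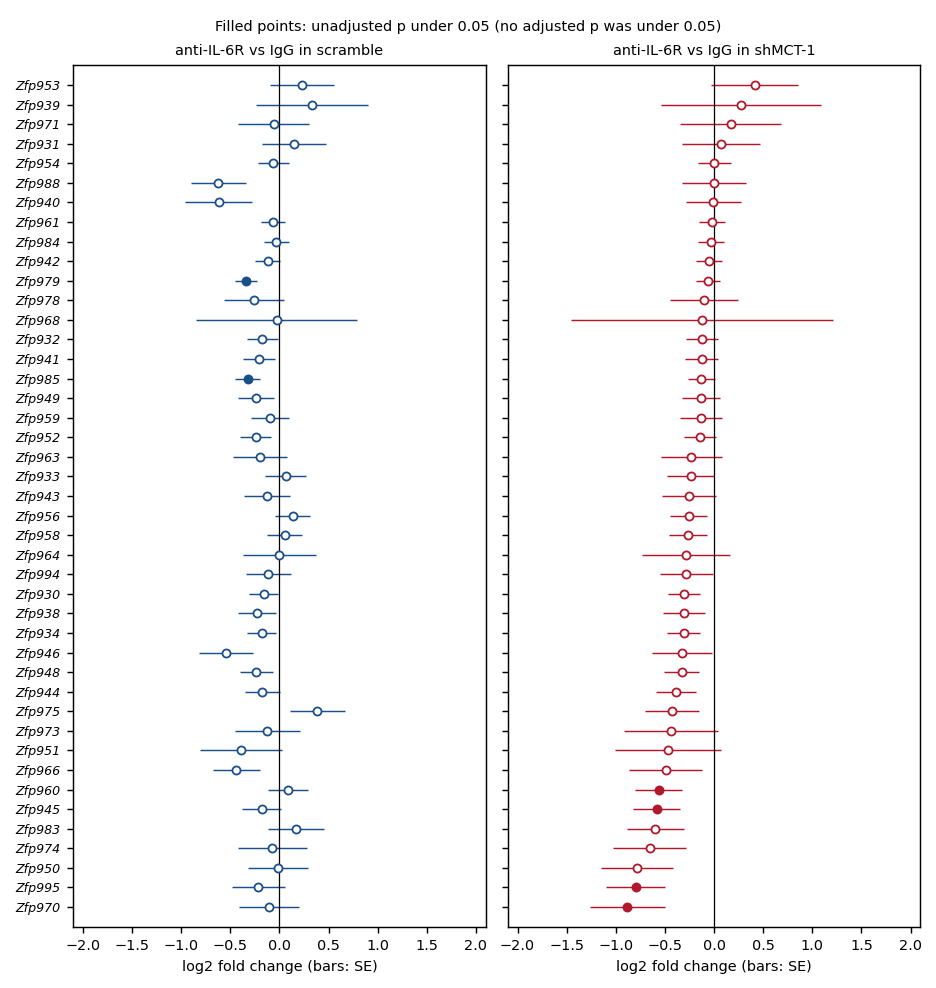
Log2 fold change of anti-IL-6R over IgG with its SE (bars) for the 43 tested genes in scramble (left) and shMCT-1 cells (right), both ordered by the value in shMCT-1 cells, with filled points at an unadjusted p under 0.05. Filled points are Zfp979 and Zfp985 on the left and Zfp945, Zfp960, Zfp970 and Zfp995 on the right, and no gene had an adjusted p under 0.05.

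Among the partners through which KRAB zinc finger proteins act and other chromatin genes listed with them, some rose and some fell. Of 32 genes of 5 chromatin lists all were tested, 13 fell and 5 rose within IgG, and 12 fell and 7 rose within anti-IL-6R, with medians of -0.15 and -0.10. Over all tested genes 26.2% were lower and 28.3% higher within IgG and 27.3% and 26.9% within anti-IL-6R, and a count in a list of 4 to 12 genes is to be read against these shares. In the KRAB co-repressor list of 7 genes, Trim28, the co-repressor that binds KRAB domains, read 591 and 488 CPM in scramble cells with IgG and 591 and 570 with anti-IL-6R, against 703 and 679 in shMCT-1 cells with IgG and 783 and 708 with anti-IL-6R. All shMCT-1 libraries were above all scramble libraries. Trim28 rose by 0.40 ± 0.10 and 0.42 ± 0.10 (edgeR, adjusted p = 0.00785 and 0.0066). Atf7ip, the partner that stabilises SETDB1, fell, by log2 fold changes of -1.16 ± 0.14 and -1.21 ± 0.14 (adjusted p = 0.000134 and 0.0001), and Cbx5, which encodes HP1 alpha, fell in both comparisons, while Setdb1 itself was called in neither. In the HUSH list Fam208a, its TASOR subunit, fell, by log2 fold changes of -1.33 ± 0.12 and -1.30 ± 0.12 (adjusted p = 2.99e-05 and 3.12e-05), and Morc2a fell too. All 4 genes of the DNA methylation list fell within IgG and 3 within anti-IL-6R, led by the de novo methyltransferase Dnmt3a at -1.32 ± 0.11 and -1.57 ± 0.11 (adjusted p = 1.78e-05 and 5.7e-06). Of the NuRD list of 12 genes, 4 rose and 3 fell within IgG and 5 rose and 3 fell within anti-IL-6R, and of 5 other H3K9 methyltransferases Ehmt1 and Suv39h2 fell in both. None of the 32 was called in either anti-IL-6R comparison.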

How the data were processed

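RNA from 8 libraries of 4T1 cells, 2 in each of 4 groups, was measured by RNA-seq. The authors deposited expected counts per gene and library, made by RSEM. Per the submitters' processing notes, reads went through cutadapt 1.18, FastQC and STAR 2.7.0d against mm10, and edgeR is also listed. Of the values above 0, 29.6% were not whole, and each was rounded to a whole number for the count model. Library totals were 19839299 to 33063570. Gene names and coordinates came from GENCODE M21 (GRCm38), which held 54495 of the 54532 gene IDs when version suffixes were ignored and 53315 when they were kept.

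Genes above 1 CPM in at least 2 of 8 libraries (12704) were scaled by TMM and fitted with group means in 1 model by the quasi-likelihood test of edgeR 4.0.16 (R 4.3.3), and a call is a Benjamini-Hochberg adjusted p under 0.05 over all of them. Errors of log2 fold changes are SE. With 2 libraries per group, p-values rest on 4 residual degrees of freedom, shared across groups and moderated across genes. On simulated counts for the comparison within IgG, the test recovered 45.5%, 82% and 93% of 200 genes changed 1.5-, 2- and 4-fold. These 200 stood among 12704 genes, while 54.4% of all tested genes were called within IgG in the measured counts. The tested Zfp9xx genes were also lower, with a median of 3.76 CPM over the 8 libraries beside 27.1 CPM for all tested genes. The recovery rates are therefore not a measure of power for the Zfp9xx genes.

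Genes with full statistics were those called lower or higher between the lines with the most extreme mean fold changes (8 from either end), Zfp979, Zfp985, Zfp946, Zfp945 and Zfp995, the 5 of highest CPM per kb, and those with the 3 smallest p-values in an anti-IL-6R comparison or the interaction. The genes and lists were chosen with earlier results of these data known. Windows of 100 bases, the stated read length, were compared across all transcripts to find shared sequence. Alternatives were DESeq2 1.42.0, the edgeR exact test, other size factors and filters, and a fit of the libraries compared alone. Others were a replicate block, leaving out each library, keeping genes with at least 50% of windows unique, subtracting the chromosome median and summing genes that share windows. For the sums, each Zfp9xx gene with at least 20% of its windows shared was joined to every gene that shared any window with it. A loess correction (span 0.3) for GC content and transcript length was chosen after seeing the data.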

Additional observations from a re-analysis of the deposited data

Results flagged for a closer look

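Zfp975 on chromosome 7 stood out because anti-IL-6R moved it in opposite directions in the lines without overlap. In scramble cells it read 1.38 and 1.24 CPM with IgG and 1.72 and 1.72 with anti-IL-6R (log2 fold change 0.38 ± 0.28), and in shMCT-1 cells 2.24 and 2.89 against 1.61 and 2.17 (-0.43 ± 0.28). The interaction was -0.81 ± 0.39 with an unadjusted p of 0.066 in edgeR's quasi-likelihood test, and it did not pass after adjustment over all tested genes (adjusted p = 1.0). At these levels 1 CPM stood for 19.8 to 33.1 counts.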

How the results depend on the processing

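Of 302 alternative values of the counts and medians, 280 stayed within 1.5 times the reported count or 1 SD between replicates of the reported median, and 22 moved. Many of the 280 are counts of 0 for anti-IL-6R and the interaction, which stayed at 0 in every alternative. The main fit called 0.0% of all tested genes there, so the tally says little about the counts between the lines. Of 953 alternative values of single genes, 869 kept direction and side of the threshold, 58 lost the threshold, 11 gained it and 15 reversed. Leaving out 1 library at a time gave 7 to 20 genes lower and 1 to 2 higher within IgG with medians of -0.65 to -0.44, 10 to 23 lower within anti-IL-6R with medians of -0.83 to -0.57, and medians of -0.37 to -0.040 for anti-IL-6R in shMCT-1 cells. With the GC and length correction 5 genes were lower and 4 higher within IgG (median -0.25), 14 lower and 3 higher within anti-IL-6R (median -0.31), and the anti-IL-6R median in shMCT-1 cells was -0.10. Without a filter the medians were -0.40 and -0.50, over more genes of low count, and 2 genes were higher within anti-IL-6R, as with filterByExpr. A filter of 1 CPM in at least 7 libraries left 1 gene higher within IgG and 0 within anti-IL-6R, fewer genes being tested. Reversed with the GC and length correction were, within IgG, Zfp984 (0.27) and Zfp995 (0.0022), within anti-IL-6R, Zfp946 (0.16), Zfp983 (0.20), Zfp984 (0.30), Zfp985 (0.13) and Zfp988 (0.018), and for anti-IL-6R in shMCT-1 cells, Zfp979 (0.14) and Zfp985 (0.046). Reversed on leaving out 1 library were Zfp946 (-0.87 to 0.029) and Zfp995 (-0.53 to 0.060) within IgG, Zfp975 (-0.023 to 0.40) and Zfp983 (-0.29 to 0.065) within anti-IL-6R, and Zfp979 for anti-IL-6R in shMCT-1 cells (-0.13 to 0.020). None of these reversed values belonged to a gene called in that comparison other than Zfp985 within anti-IL-6R, and the cause was not tested. Over all 12704 tested genes the deviations of same-numbered replicates had correlations of -0.08 to 0.11, so the numbers were not taken to pair the libraries. Over the 43 genes replicate 1 was nonetheless below replicate 2 in all 4 groups (median log2 differences of -0.15, -0.11, -0.26 and -0.14). With a replicate block 20 genes were lower and 2 higher within IgG and 22 lower and 1 higher within anti-IL-6R, with medians of -0.57 and -0.65. With genes that share windows summed, 15 and 20 of 35 features were lower. The share of all tested genes called with the block, with other filters or with the sums is not given here. These counts are therefore not read as results about the Zfp9xx genes. At a mean of 0.5 CPM 46 genes were reached in at least 1 group, and at a TPM of 1, 40.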
